A study of Rattus norvegicus with 6 samples.

Results

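The genes described here encode the initiation and elongation factors of cytosolic translation, read in the pancreas of 6 rats. Members were taken by gene symbol: every gene whose symbol begins with Eif or Eef and that has a probe set annotated to that gene alone, leaving out the Eif2ak kinases. This gave 52 genes of the 10411 genes on the array with such a probe set, each read on its probe set of highest mean over the 6 arrays. Of the 52, 51 passed the filter on low intensity, which kept 7104 genes, and Eif4e3 did not. The rats were on a control diet (3 rats) or an ethanol diet (3 rats), 1 array for each animal. The labels give no strain, sex, age, dose or length of feeding, and the series title calls the ethanol consumption chronic. Values on the 6 arrays are given below as deposited intensities, in the order of replicates 1, 2 and 3 of each diet.

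Protein synthesis begins when eIF4F, made of the cap-binding protein eIF4E, the scaffold eIF4G and the RNA helicase eIF4A, binds the cap of an mRNA. The multi-subunit eIF3 then bridges the mRNA to the small ribosomal subunit, which carries the initiator tRNA brought by eIF2, and eIF2B recharges eIF2 with GTP after each round. The elongation factors eEF1 and eEF2 deliver aminoacyl tRNAs and move the ribosome along the message. Acinar cells of the exocrine pancreas are known for very high rates of protein synthesis, directed mainly at digestive enzymes.

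The tissue carried the markers of its label. Of 9 acinar markers listed, 8 were on the array and passed the filter. Their summed intensity was 936486 to 945500 in control rats and 949654 to 992133 in ethanol rats, without overlap. Only 5 of the 8 had a positive log2 change, and Bhlha15, Cel and Cela1 were lower (-0.06, -0.03 and -0.10). The limma adjusted p of the 8 ran from 0.481 to 0.956, so the sum shows no rise shared by the list. Sums of markers of islet, duct, fat, leukocyte, endothelial and stellate cells overlapped between diets. The 3 erythroid markers on the array (Hbb, Hba-a3 and Alas2) summed to between 14138 and 21085 in control rats and between 24346 and 31650 in ethanol rats, without overlap, and none of the 3 had a mean under 100. The part of the acinar and erythroid differences in the values below was not tested. The ratio of 3' to 5' signal for beta-actin, a sign of RNA integrity, lay between 1.44 and 2.01 in control rats and between 1.54 and 1.78 in ethanol rats. In bulk tissue, fewer cells of a type and less RNA in each cell cannot be told apart.

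The promoters of 4 members are shown because the eIF3 and eIF4 results turn on these genes: Eif3d, Eif3a and Eif4a2 had the smallest p-values of all members, and Eif3i the smallest difference of all eIF3 subunits. Each is the 250 bases before the annotated start, read 5′ to 3′ on the strand of the gene from RefSeq (build GRCr8). They lie at chr7:111432741-111432990 for Eif3d, chr1:269919026-269919275 for Eif3a, chr11:91275324-91275573 for Eif4a2 and chr5:147226911-147227160 for Eif3i, all on the minus strand. Capitals mark matches, on either strand, to the ETS core CCGGAAG, the E-box CACGTG, the box CCAAT read by nuclear factor Y, the cAMP response element TGACGTCA or the TATA box TATAAA. No motif contains another.
Eif3d: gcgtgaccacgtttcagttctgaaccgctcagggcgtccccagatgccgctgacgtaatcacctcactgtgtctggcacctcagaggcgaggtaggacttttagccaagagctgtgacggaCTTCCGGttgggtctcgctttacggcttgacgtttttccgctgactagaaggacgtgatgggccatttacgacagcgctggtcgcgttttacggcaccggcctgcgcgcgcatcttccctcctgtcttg
Eif3a: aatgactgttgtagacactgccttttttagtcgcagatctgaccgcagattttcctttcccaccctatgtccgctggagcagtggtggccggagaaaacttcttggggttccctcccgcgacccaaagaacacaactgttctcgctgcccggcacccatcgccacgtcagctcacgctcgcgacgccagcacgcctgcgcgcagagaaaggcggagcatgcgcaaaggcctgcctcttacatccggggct
Eif4a2: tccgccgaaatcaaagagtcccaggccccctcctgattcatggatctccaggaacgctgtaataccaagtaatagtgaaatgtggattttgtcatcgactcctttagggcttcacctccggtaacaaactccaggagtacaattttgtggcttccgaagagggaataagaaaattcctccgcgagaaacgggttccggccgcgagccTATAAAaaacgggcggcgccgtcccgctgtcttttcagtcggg
Eif3i: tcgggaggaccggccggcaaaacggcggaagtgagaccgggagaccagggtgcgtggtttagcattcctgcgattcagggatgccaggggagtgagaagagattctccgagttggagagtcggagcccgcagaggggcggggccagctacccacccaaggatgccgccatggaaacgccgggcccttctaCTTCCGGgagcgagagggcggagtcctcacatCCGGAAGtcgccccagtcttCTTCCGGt

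Of these 4, Eif3d held 1 ETS core, with its first base at -129 from the start, Eif3i held 3, Eif4a2 held a TATA box and Eif3a held none of the 5 motifs. Promoters were found for 47 of the 52 members. An ETS core was in 15 of the 47 (31.9%) and in 15.2% of the 5937 promoters of tested genes. The E-box was in 10 of 47 (21.3%, against 8.29%), the box CCAAT in 10 (21.3%, against 35.8%), the cAMP response element in 1 (2.13%, against 2.85%) and the TATA box in 3 (6.38%, against 7.24%). The ETS core was present both in Eif3d, lower in ethanol, and in Eif3i, near its control level, and no test was made of these shares. A match is a description of the letters and not of a bound site.

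Ethanol-fed rats had slightly lower levels of most translation factor transcripts, and no single member passed the test over all genes. Across the 51 measured members the median log2 difference, ethanol minus control, was -0.21 on the scale of log2(intensity + 50), against -0.012 over all 7104 genes tested. The difference was below 0 for 44 of the 51, where 51.5% of all genes were below 0. On 22 of the 51 (43.1%) every ethanol array lay below every control array, where 15.4% of all genes did so. On 0 did every ethanol array lie above, where 11.0% of all genes did. These counts use 1 probe set for each gene. Eif4g2 is among the 22, but on its other probe set every ethanol array lay above every control array. At an unadjusted p under 0.05 (limma), 11 members (21.6%) were lower and 0 higher, where 11.2% of all genes were lower and 7.60% higher. After Benjamini-Hochberg adjustment limma called 0 of the 51, where it called 0.296% of genes as lower, 0.0704% as higher and 0.347% of all 9522 probe sets in either direction.

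The shift was seen on each ethanol array. Relative to each gene's control mean, the median over members was -0.25, -0.16 and -0.24 on log2 scale in ethanol replicates 1, 2 and 3. It lay between -0.033 and 0.030 in the 3 control rats, whose deviations average 0 for each gene by construction. Over all tested genes the same median stayed between -0.016 and 0.0057 on the 6 arrays. Replicates were tighter for members than for genes at large: the median coefficient of variation was 9.04% in control and 9.47% in ethanol rats, against 12.6% and 15.4% over all tested genes. Members were also brighter, with a median intensity of 3209 against 1054. The part of this brightness and smaller spread in the members' share of non-overlapping genes was not tested. Among genes above the 60th percentile of intensity, 22 of 48 members (45.8%) and 17.3% of all genes lay below without overlap.

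**Figure D1:**
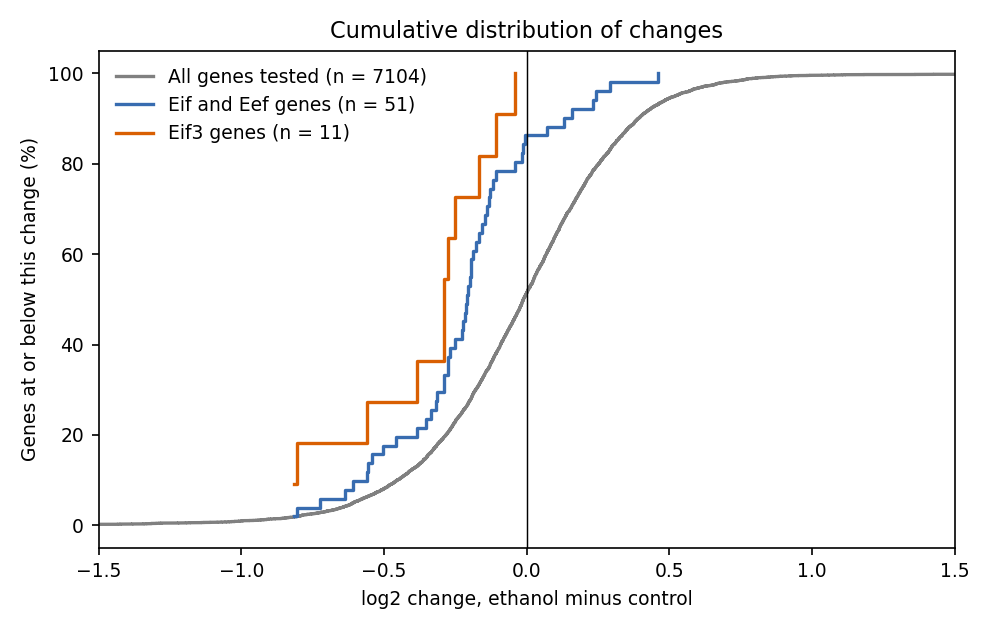
Cumulative share of genes (y axis, percent) against the log2 change, ethanol minus control (x axis), for all 7104 genes tested, the 51 measured Eif and Eef genes and the 11 Eif3 genes. The Eif and Eef curve lies to the left of the curve of all genes over most of its course (medians -0.21 and -0.012), and all 11 Eif3 genes are below 0.

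**Figure D2:**
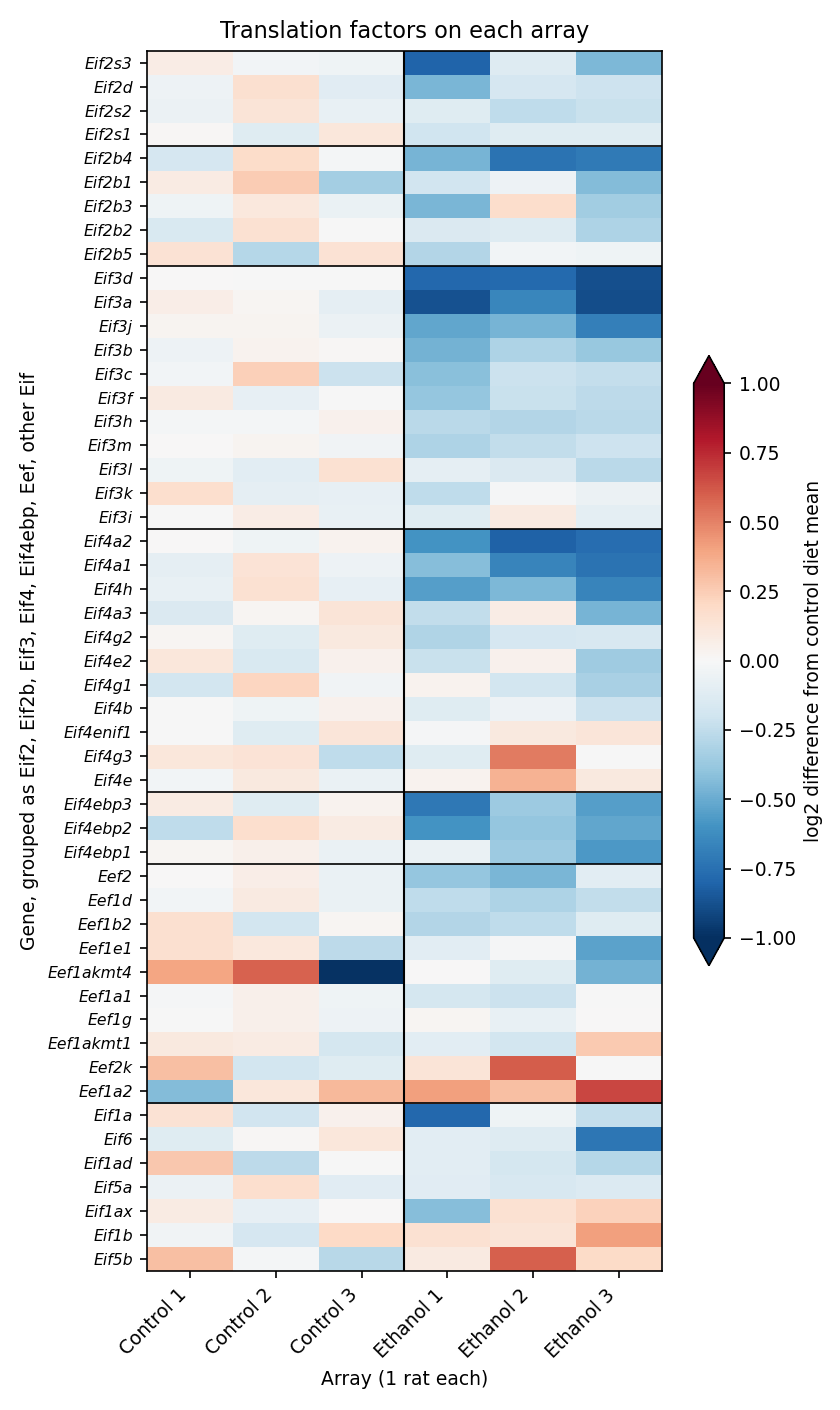
Log2 difference of each measured gene from its control diet mean (colour, blue lower and red higher, limits -1 and 1) on each of the 6 arrays, with lines between gene groups. Blue fills the Eif3 rows of all 3 ethanol arrays apart from the lower rows of the block, while the Eef block and the other Eif block are mixed.

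The subunits of eIF3, the scaffold on the small ribosomal subunit, had a log2 difference below 0 in all 11 measured genes, with a median of -0.29. On 8 of the 11 (72.7%) every ethanol rat was below every control rat, where 15.4% of all genes were. At an unadjusted p under 0.05, 4 (36.4%) were lower, where 11.2% of all genes were, and after adjustment over all genes limma called 0. The differences were graded, from -0.81 for Eif3d to -0.04 for Eif3i.

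Eif3d, the subunit that can itself bind the cap of certain mRNAs, read 6463, 6425 and 6413 in control rats and 3712, 3724 and 3479 in ethanol rats. The 3 ethanol values lay close together and far below the 3 control values. The means were 6434 ± 26.1 and 3638 ± 138 (SD, n = 3), so that ethanol rats had 56.6% of the control level. The log2 difference was -0.81 (SE 0.13, 95% interval -1.11 to -0.52), with an unadjusted limma p of 2.06e-04, the 30th smallest of 7104 genes. It narrowly missed the threshold, with a limma adjusted p of 0.0515. With the intensity filter set on mean log2 values in place of mean intensities it passed (limma adjusted p = 0.0492), so the call turns on that choice. Over all alternatives its limma adjusted p ran from 0.00470 to 0.203. Eif3d was singled out with earlier results of these data known.

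Eif3a, the largest subunit and the one around which the complex is built, read 7102, 6894 and 6394 in control rats and 3692, 4303 and 3644 in ethanol rats. Here too the diets were well apart, and the spread within each diet was wider than for Eif3d. The means were 6797 ± 364 and 3880 ± 367 (SD, n = 3), a log2 difference of -0.80 (SE 0.14, limma adjusted p = 0.0632).

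Eif3j, a loosely attached subunit, read 4755, 4742 and 4468 against 3223, 3350 and 2874. Its log2 difference was -0.56 (SE 0.14, limma adjusted p = 0.110). Eif3b, which holds the subunits near the mRNA entry channel, read 3890, 4121 and 4063 against 2889, 3244 and 3088 (-0.38, SE 0.13, limma adjusted p = 0.185). Neither pair of groups overlapped. Eif3j, Eif3b and Eif3i are outside the rule for named genes and were chosen after their values were seen.

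Eif3h and Eif3m belong to the core of the mammalian complex. Eif3h read 13652, 13657 and 14261 in control rats and 11511, 11316 and 11463 in ethanol rats (log2 difference -0.28, SE 0.13, limma adjusted p = 0.294). Eif3m read 11123, 11342 and 10852 against 8979, 9336 and 9628 (-0.25, SE 0.13, limma adjusted p = 0.334). Both were small differences between groups that did not overlap. By contrast Eif3i read 4121, 4343 and 3919 against 3798, 4387 and 3857, with overlapping groups and a log2 difference of -0.04 (95% interval -0.36 to 0.27). The remaining measured subunits Eif3c, Eif3f, Eif3k and Eif3l were at -0.29, -0.29, -0.11 and -0.17. A probe set annotated to both Eif3e and Eif3el1 was left out by the rule and is named after its values were seen. It read 6689, 6555 and 7606 against 5660, 5091 and 4873 (-0.41, SE 0.14, limma adjusted p = 0.186).

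Eif3d was further below its control mean than the median of the other subunits on each ethanol array. Its deviation from the control mean was -0.79, -0.78 and -0.88 in ethanol replicates 1, 2 and 3, while the median of the 10 other subunits was -0.35, -0.23 and -0.26. The difference between them was -0.44, -0.55 and -0.61 in ethanol rats and between -0.026 and 0.041 in control rats. Control deviations average 0 for each gene by construction, so the control range shows only the spread between control rats. Eif3a was at -0.87, -0.65 and -0.89, below Eif3d in ethanol replicates 1 and 3 and above it in replicate 2. No test is given for this difference, since Eif3d was singled out with results known. Without Eif3d, the 10 other subunits had a median of -0.28, and all 10 were below 0, where 51.5% of all genes were. Of the 10, 7 did not overlap (70.0%, against 15.4% of all genes).

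**Figure D3:**
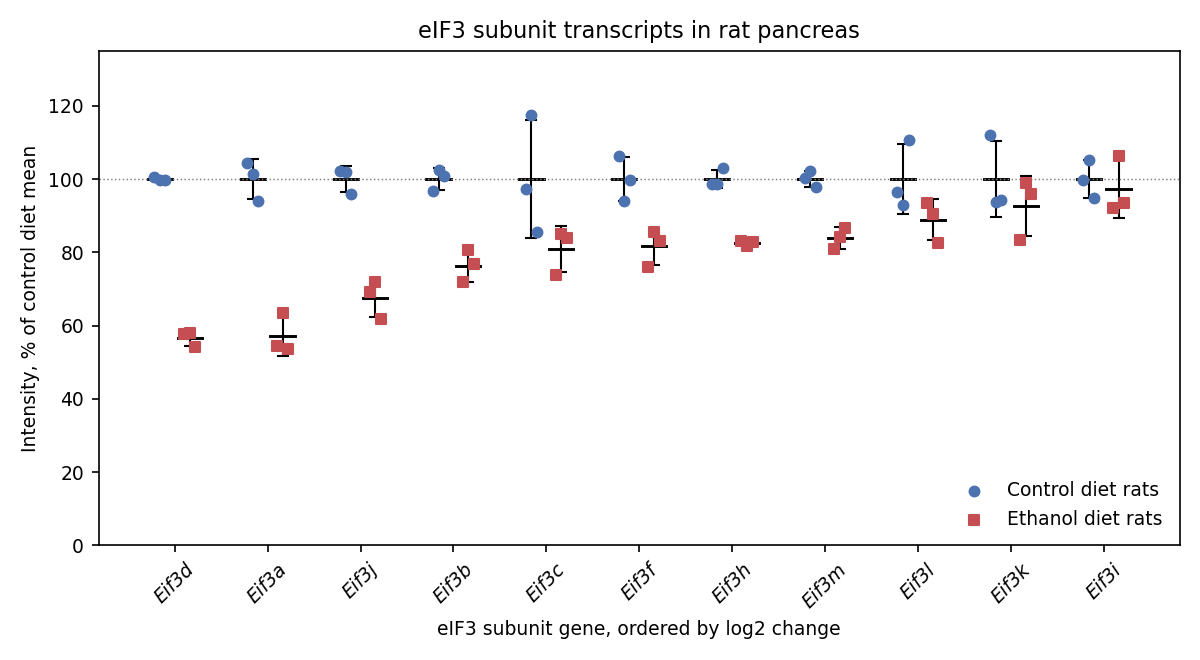
Intensity of the 11 eIF3 subunit genes (x axis, ordered by log2 change) as a percent of the control diet mean (y axis, from 0). Circles are control rats and squares ethanol rats, with the mean and SD (n = 3). Eif3d and Eif3a stand lowest, at 56.6% and 57.1% of control, and Eif3i at 97.2% overlaps.

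Among the eIF4 factors, which bind the cap and unwind the mRNA, the median log2 difference was -0.18, and Eif4a2, Eif4a1 and Eif4h had the largest differences. Of 11 measured genes 8 were below 0 (72.7%, against 51.5% of all genes) and 5 lay below without overlap (45.5%, against 15.4%). At an unadjusted p under 0.05, 3 were lower (27.3%, against 11.2%), and limma called 0 after adjustment.

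Eif4a2, a DEAD-box helicase, read 16955, 16377 and 17344 in control rats and 11131, 9603 and 9932 in ethanol rats. All 3 ethanol rats were far below all 3 controls. The means were 16892 ± 487 and 10222 ± 804 (SD, n = 3), a log2 difference of -0.72 (SE 0.13, limma adjusted p = 0.0758). Its close relative Eif4a1 read 8927, 10468 and 9201 against 7077, 6004 and 5669 (-0.61, SE 0.15, limma adjusted p = 0.113). The groups of Eif4a1 did not overlap either. The genes are close relatives, and whether cross-hybridization blurs their values was not tested. Eif4h, a cofactor of the helicase, chosen after its values were seen, read 4274, 4990 and 4248 against 3048, 3270 and 2822 (-0.56, SE 0.14, limma adjusted p = 0.123).

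The cap-binding protein gene Eif4e read 1492, 1630 and 1446 in control rats and 1556, 1947 and 1632 in ethanol rats. These groups overlapped (log2 difference 0.16, SE 0.15, 95% interval -0.18 to 0.50). A dimmer probe set of Eif4e gave -0.38 (SE 0.20), the opposite sign, so no direction can be given for this gene. The scaffold Eif4g1 read 3184, 4220 and 3539 against 3720, 3189 and 2882, again overlapping (-0.16, SE 0.17). Eif4g2, a relative that lacks the part binding eIF4E, also gave opposite signs: -0.21 (SE 0.14) for the brighter of 2 probe sets, 0.38 (SE 0.14) for the other. On the brighter one every ethanol rat lay below every control rat. The other read 3684, 3706 and 4318 in control rats and 5171, 4970 and 5119 in ethanol rats, higher without overlap. This gene was chosen after its values were seen. Eif4a3, Eif4b, Eif4e2, Eif4enif1 and Eif4g3 ranged from -0.21 to 0.13. Eif4e3 did not pass the filter: it read 65, -65 and 16 in control rats and 102, 147 and 597 in ethanol rats, and these values, higher in ethanol without overlap but mostly dim, were not tested.

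The eIF4E-binding proteins, which hold eIF4E away from eIF4G until mTORC1 phosphorylates them, had a log2 difference below 0 in all 3 genes, and limma called 0 of them. Eif4ebp3 read 6406, 5568 and 6219 in control rats and 3669, 4692 and 4121 in ethanol rats (log2 difference -0.54, SE 0.15, limma adjusted p = 0.140). Eif4ebp2 read 1840, 2480 and 2325 against 1435, 1665 and 1514 (-0.50, SE 0.16, limma adjusted p = 0.169). Neither of these pairs overlapped (66.7% of the 3 genes, against 15.4% of all genes). Both genes had an unadjusted p under 0.05 (66.7%, against 11.2% of all genes lower). Eif4ebp1 read 6892, 7036 and 6473 against 6501, 5286 and 4536, with ethanol replicate 1 inside the control range (-0.33, SE 0.17, limma adjusted p = 0.327).

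**Figure D4:**
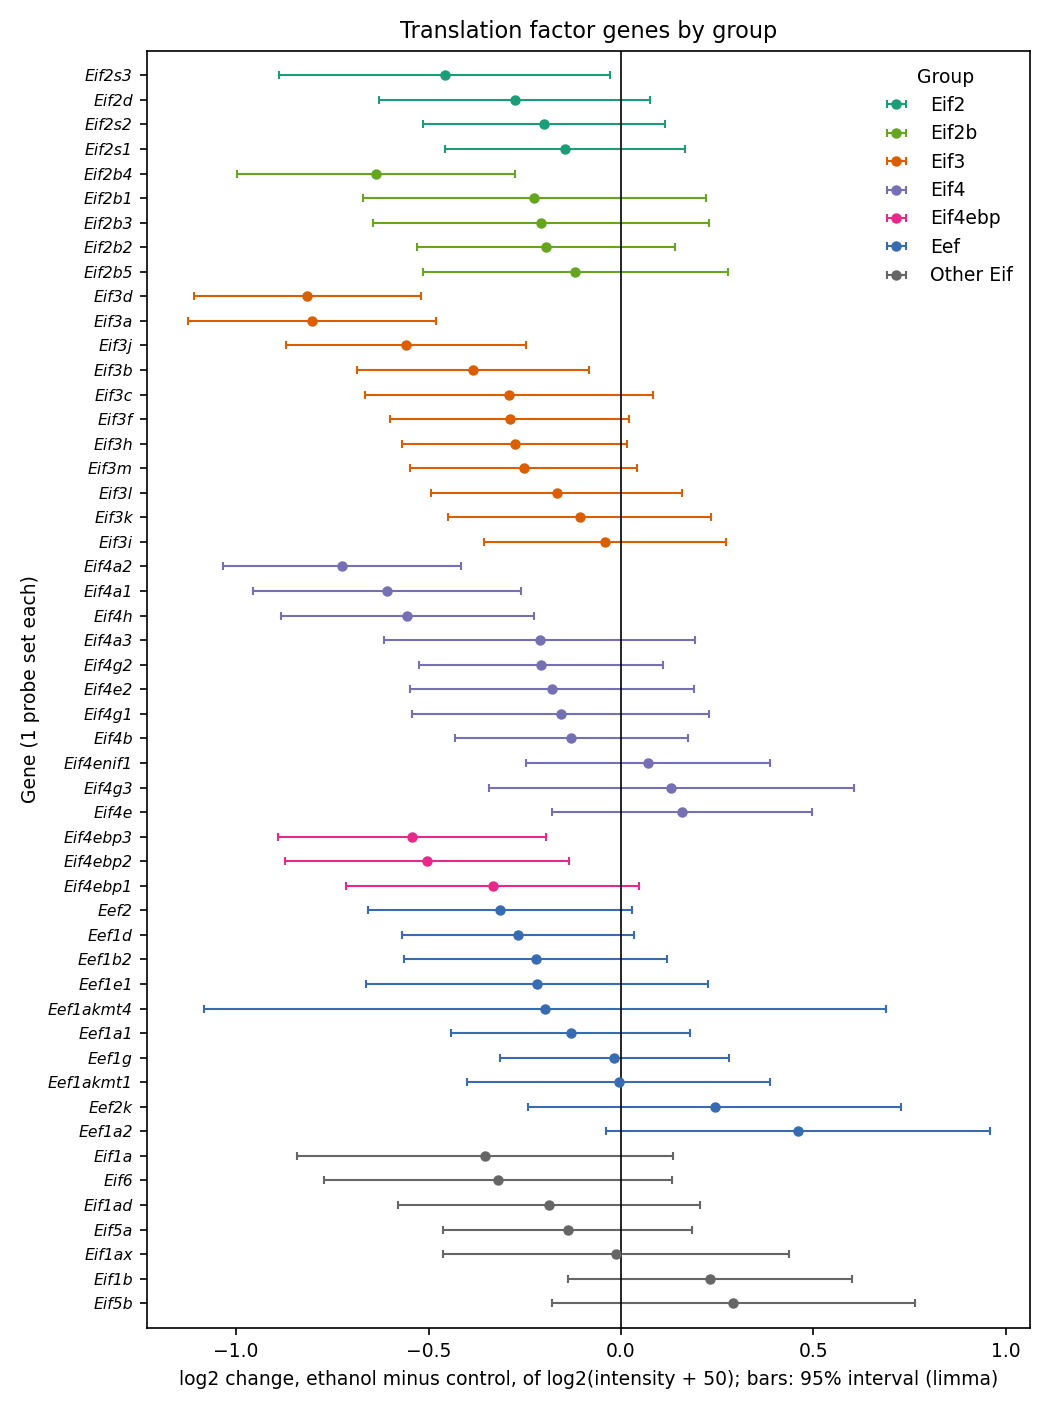
Log2 change, ethanol minus control, of the 51 measured genes (x axis) with the 95% interval from limma, coloured by group and ordered within it (y axis). Points lie left of 0 for 44 of the 51, Eif3d and Eif3a lie farthest left, and Eef1a2 farthest right at 0.46.

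The subunits of eIF2, which carries the initiator tRNA, had log2 differences between -0.46 and -0.15. Eif2s1, whose phosphorylation slows translation under stress, read 2130, 1929 and 2279 in control rats and 1833, 1938 and 1933 in ethanol rats (log2 difference -0.15, SE 0.14). Eif2s2 read 9929, 11336 and 9857 against 9517, 8660 and 8871 (-0.20, SE 0.14), with the ethanol rats just below. Eif2s3, the subunit that binds GTP, read 1586, 1476 and 1459 against 845, 1374 and 1090 (-0.46, SE 0.19), where the ethanol rats were widely spread. Eif2d, which is no subunit of eIF2 but another factor able to deliver tRNA, read 1578, 1841 and 1516 against 1181, 1457 and 1414 (-0.28, SE 0.15). All 4 genes were below 0, where 51.5% of all genes were, and 3 did not overlap (75.0%, against 15.4% of all genes). The limma adjusted p of the 4 ran from 0.246 to 0.597.

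The eIF2B subunits, which exchange GDP for GTP on eIF2, were below 0 in all 5 genes, where 51.5% of all genes were. Where 15.4% of all genes lay below without overlap, 1 of the 5 did so. That was Eif2b4, the delta subunit, which read 1887, 2425 and 2103 in control rats and 1526, 1254 and 1285 in ethanol rats. Its means were 2138 ± 271 and 1355 ± 149 (SD, n = 3), a log2 difference of -0.64 (SE 0.16, limma adjusted p = 0.113). Eif2b2, the beta subunit, read 1482, 1836 and 1647 against 1485, 1503 and 1320 (-0.20, SE 0.15). The catalytic epsilon subunit Eif2b5 read 932, 680 and 932 against 676, 825 and 815, with overlap (-0.12, SE 0.17). Eif2b1 and Eif2b3 were at -0.23 and -0.21.

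Among the remaining initiation factors, of 7 genes 5 were below 0 (71.4%, against 51.5% of all genes) and 2 above (median log2 difference -0.14). Of the 7, 1 did not overlap (14.3%), near the 15.4% of all genes. At an unadjusted p under 0.05 there were 0, where 11.2% of all genes were lower and 7.60% higher, and limma called 0 after adjustment. Eif1a, whose product helps the ribosome scan for the start codon, read 908, 712 and 847 against 455, 794 and 687 (-0.35, SE 0.21). Eif6, which keeps the large subunit from joining too early, read 2706, 2979 and 3189 against 2746, 2692 and 1767, where ethanol replicate 3 was low (-0.32, SE 0.20). Eif5a, a factor modified by hypusine that relieves stalled ribosomes, read 11884, 13973 and 11480 against 11439, 11090 and 11250 (-0.14, SE 0.14). Eif1ad, Eif1ax, Eif1b and Eif5b ranged from -0.19 to 0.29.

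Of 10 elongation factors and their modifiers, 8 were below 0, where 51.5% of all genes were. The median log2 difference of the 10 was -0.16. Of the 10, 2 lay below without overlap, near the 15.4% of all genes that did so. At an unadjusted p under 0.05 limma had 0 of 10 lower and 0 higher, where 11.2% of all genes were lower and 7.60% higher. Eef2, the translocase, read 28412, 29635 and 27064 in control rats and 21723, 20686 and 26387 in ethanol rats. The groups did not overlap, but ethanol replicate 3 came near the controls (means 28370 ± 1286 and 22932 ± 3037, SD, n = 3), and the log2 difference was -0.31 (SE 0.15, limma adjusted p = 0.312). Eef1a1, which brings aminoacyl tRNA to the ribosome, read 63198, 66022 and 61970 against 56374, 54988 and 63534 (-0.13, SE 0.13), and its other probe set gave -0.04 (SE 0.13). Both probe sets of Eef1a1 had overlapping groups, and whether its many processed copies affect its value was not tested. Eef1a2, the form typical of muscle and nerve, had the largest positive difference of all tested members. It read 462, 698 and 816 against 871, 804 and 1047, with overlap (0.46, SE 0.22, limma adjusted p = 0.308).

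Eef2k, the kinase that inactivates eEF2, could not be read in 1 direction. Its probe set of highest mean read 1410, 992 and 1038 in control rats and 1241, 1749 and 1132 in ethanol rats (log2 difference 0.24, SE 0.21). Another gave 0.30 (SE 0.15), and the groups overlapped on both of these. A further probe set gave -0.80 (SE 0.26, limma adjusted p = 0.175). It read 921, 1161 and 990 in control rats and 394, 871 and 517 in ethanol rats, lower without overlap. The exchange factor subunits of eEF1 were at -0.22 for Eef1b2, -0.27 for Eef1d and -0.02 for Eef1g. Eef1e1, a protein of the synthetase complex, was at -0.22, and the methyltransferases Eef1akmt1 and Eef1akmt4 at -0.01 and -0.20. Altogether 7 members had more than 1 probe set, of which 5 had more than 1 past the filter.

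**Figure D5:**
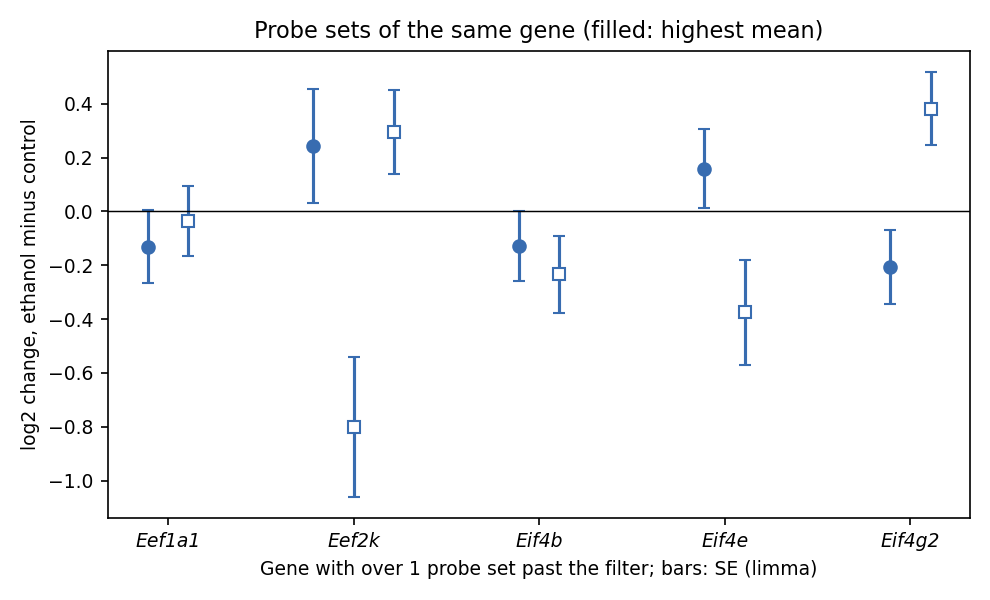
Log2 change, ethanol minus control (y axis, bars: SE), of every probe set past the filter for the 5 genes with more than 1 such probe set (x axis). The filled circle is the probe set of highest mean. Signs differ between probe sets for Eef2k, Eif4e and Eif4g2, and they match for Eef1a1 and Eif4b.

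Regulators around these factors were read from 4 lists. Among kinases, phosphatases and targets of the eIF2 stress pathway, limma called 0 of 15 measured genes, 0 had an unadjusted p under 0.05 in either direction, and the median log2 difference was -0.08. Those of smallest p were Eif2ak4, the amino acid sensing kinase (-0.39, SE 0.17), Eif2ak3, the kinase of the endoplasmic reticulum (-0.38, SE 0.20), and the induced factor Atf4 (-0.32, SE 0.17). Atf4 read 18388, 20040 and 21029 in control rats and 19577, 14756 and 13701 in ethanol rats, with overlap.

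In the list of mTOR and MAP kinase control, limma called 0 of 23 measured genes after adjustment, 3 had an unadjusted p under 0.05, all with ethanol higher (where 7.60% of all genes were), and the median was 0.05. Ddit4, an inhibitor of mTORC1, read 766, 1484 and 1138 in control rats and 2801, 6494 and 6352 in ethanol rats (log2 difference 2.11, SE 0.36, limma adjusted p = 0.0605). Sesn1, which restrains mTORC1 when amino acids are scarce, read 1045, 1343 and 770 against 2126, 1931 and 2240 (0.99, SE 0.20, limma adjusted p = 0.0899). Larp1, which binds mRNAs of ribosomal proteins and translation factors, read 6375, 5759 and 5274 against 8242, 8453 and 8228 (0.52, SE 0.14, limma adjusted p = 0.132). In each of these 3 genes every ethanol rat was above every control rat. Of the 23, 7 lay above without overlap and 4 below, where 11.0% and 15.4% of all genes did. Mtor (0.34) was among the 7 and Deptor (-0.28) among the 4, both named after their values were seen.

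In the list of cap and poly(A) binding, termination and recycling factors, 1 of 14 measured genes passed, where 0.296% of all genes were called as lower. Pelo, which rescues stalled ribosomes, fell from 1777, 1431 and 1776 in control rats to 614, 774 and 712 in ethanol rats. The means were 1661 ± 200 and 700.0 ± 80.7 (SD, n = 3). Its log2 change was -1.19, with an SE of 0.16 and a limma adjusted p of 0.0412. Leaving out any 1 array ended the call (limma adjusted p of 0.0522 to 0.167), as did a constant of 20 (0.0533), no intensity filter (0.160) and the replicate number as a block (0.136). Paip2, a repressor of poly(A) binding protein, was at -0.35 (SE 0.13), and the release factor Etf1 at -0.44 (SE 0.17). Both had groups that did not overlap, with a limma adjusted p of 0.206 and 0.237. Of the 14, 5 lay below without overlap (35.7%, against 15.4% of all genes) and 1 above, where 11.0% of all genes did. At an unadjusted p under 0.05 (limma), 3 were lower (21.4%, against 11.2% of all genes) and 0 higher. Among 18 measured aminoacyl tRNA synthetases and partners, limma called 0 and 5 had an unadjusted p under 0.05, all with ethanol lower (27.8%, against 11.2% of all genes), and the median was -0.04. Kars1 (-0.48, SE 0.15), Qars1 (-0.41, SE 0.14) and Mars1 (-0.48, SE 0.16), which charge lysine, glutamine and methionine tRNAs, had the smallest p.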

How the data were processed

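Total RNA of 6 rat pancreases was read on 1 single-colour array each. As deposited, these are intensities: whole numbers, some below 0, with medians of 543 or 544 on every array, so the values look background-subtracted and scaled between arrays; the method is not given in the sources used here. Of the probe sets, 15866 remained after 57 controls were left out. Gene names come from the platform annotation, and all 52 gene IDs were found in RefSeq (GRCr8). Values below 0 were set to 0, 50 was added and log2 taken, which understates changes of dim probe sets. The 9522 probe sets at or above the 40th percentile of mean intensity were fitted with limma 3.58.1 (R 4.3.3), ethanol against control, without a block, with Benjamini-Hochberg adjustment over all of them and a threshold of 0.05. The number of arrays limits the precision: the median SE over genes was 0.18. The fit was checked on simulated data. Values on every array are given for Eif3d, for the 2 members of smallest p and the 2 of highest mean in each group, and for 11 genes set by name, of which Eif5 had no probe set of its own. The 4 lists of related genes give their 3 genes of smallest p. Members and lists were chosen with earlier results of these data known. Another 4 probe sets annotated to several genes were left out. Alternatives changed the constant (20 or 100), the scaling (quantiles or equal medians), the filter (none, the 60th percentile, or mean log2 values), the variance model (an intensity trend or a replicate block), the probe set rule (averaging per gene), the threshold (0.10) and the arrays used (each left out once).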

Additional observations from a re-analysis of the deposited data

How the results depend on the processing

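No member passed in the fit reported above, and the count depended on the settings. It was 1 (Eif3d) with a constant of 100, with probe sets averaged per gene and with a filter on mean log2 values, the last of which was chosen after seeing the data. It was 3 (Eif3a, Eif3d and Eif4a2) when filtering at the 60th percentile or at a threshold of 0.10, and 7 with an intensity trend, which added Eif3j, Eif4a1, Eif4ebp3 and Eif4h. It was 0 in all 6 fits that left out an array. The log2 change of Eif3d was -0.81 under these settings (limma adjusted p of 0.0425 with the constant of 100, 0.0443 with averaged probe sets, 0.0492 with the log2 filter, 0.0259 with the 60th percentile and 0.00470 with the trend). Its limma adjusted p was 0.159 without a filter and ran from 0.0693 to 0.203 with an array left out. The 33 probe sets called over the whole array became 11 and 52 with constants of 20 and 100, 0 without a filter (limma, with 9.09% of genes lower at an unadjusted p under 0.05), 130 at the 60th percentile, 242 with the trend, 188 at a threshold of 0.10, and 2 to 44 with an array left out. Members lower at an unadjusted p under 0.05, a count chosen after seeing the data, were 18 with the trend, where 12.2% of all genes were lower, and 8 to 13 with an array left out, where 7.90% to 10.9% were. Members without overlap, not counted with arrays left out, were 19 with quantile normalization, 21 with averaged probe sets and 22 otherwise. The shares of all genes under quantile normalization and averaging are not given here, so those counts cannot be set against them. The median over members was -0.16 to -0.24 with an array left out, the weakest without ethanol replicate 3. The Eef median was -0.10 with quantile normalization and -0.18 to -0.077 with an array left out, where control replicates 1 and 2 and ethanol replicate 3 each took it to -0.11 or nearer 0. That of the other Eif genes was -0.19 to -0.052, at -0.052 without control replicate 1 and -0.055 without control replicate 2. The Eif4 median was -0.087 without ethanol replicate 3, and the Eif2b median -0.31 without ethanol replicate 2. Of the genes followed over the alternatives, Eef2k, Eif2b5 and Eif4e changed sign when their probe sets were averaged (-0.02, 0.13 and -0.11). For Eif2b5 the average takes in a dim probe set that failed the filter (mean 149.8, log2 difference 0.38). Eif4g2, whose probe sets also differ in sign, was not followed. The cause of the shifts under these settings was not tested.

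The labels do not say whether replicate numbers pair the rats. Deviations of same-numbered rats correlated at -0.037, 0.024 and -0.15, and those of differently numbered rats at -0.073 to 0.11. With 3 rats a diet, these values show no sign of pairing but cannot exclude it. With the replicate block, limma called 5 probe sets and 0 members, and the limma adjusted p of Eif3d was 0.181. At an unadjusted p under 0.05 (limma with the block), 10 members were lower, where 9.84% of all genes were.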
